A study of Rattus rattus with 8 samples.

Results

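Transcript levels of 8 genes of neuregulin and epidermal growth factor (EGF) signalling were compared between diploid (2n) and tetraploid (4n) cells that had been sorted from cultures of newborn rat hearts labelled as neonatal cardiomyocytes, or heart muscle cells. Markers of fibroblasts far exceeded those of muscle cells in the 2n libraries, and by a smaller margin they also exceeded them in each 4n library. The genes were chosen by name: the ligands Nrg1, Hbegf, Ereg and Areg, and the receptors Egfr, Erbb2, Erbb3 and Erbb4. All 8 were found among the 30957 genes of the deposited table, and all 8 passed the filter on low counts, as did 12983 genes in total. The cells came from SD pups 1 to 3 days after birth and were enriched for muscle cells by differential adherence. Culture lasted 24 h in medium with AraC at 0.2 mM, which blocks DNA synthesis, and with insulin, transferrin and selenium, after which the cells were starved of serum and held at 1% oxygen for 48 h. The 2n and the 4n group shared all of these treatments, so there was no normoxic or unsorted group. Sorting was by DNA content after staining with a Hoechst dye at 2 µg/mL, and a 4n signal does not separate a tetraploid nucleus from a cell with a pair of nuclei, a cell about to divide or a stuck pair of 2n cells. Each group had 4 libraries, replicates 1 to 4, described as independent experiments. The libraries held 14783521 to 21033772 counts.

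The ErbB receptors are a family of membrane tyrosine kinases that work as pairs. EGFR binds amphiregulin (Areg), epiregulin (Ereg) and heparin-binding EGF (Hbegf), ErbB3 and ErbB4 bind neuregulin, and ErbB4 also binds epiregulin and heparin-binding EGF. ErbB2 has no known ligand of its own and serves as the partner of the others, while ErbB3 has little kinase activity and signals through its partner. In the heart, neuregulin-1 from endothelial cells acts on ErbB4 and ErbB2 of cardiomyocytes. This signal is needed for trabeculation of the embryonic heart and promotes division of young cardiomyocytes in rodents.

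The libraries did not have the marker profile of a pure muscle culture. Summed over 12 cardiomyocyte markers, the level was 505 to 989 CPM (a count scaled to the size of its library) in 2n and 4253 to 30924 in 4n, with no marker at 0 in any library. Summed over 9 fibroblast markers it was 62914 to 72646 CPM in 2n and 37617 to 63610 in 4n, also with none at 0. Genes of the mitochondrial chromosome made up 2.87% to 3.82% of 2n counts. They made up 3.71% in 4n replicate 1 but 24.1% to 25.9% in 4n replicates 2, 3 and 4. These are bulk samples, in which fewer cells of a type and less RNA per cell cannot be told apart.

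**Figure D1:**
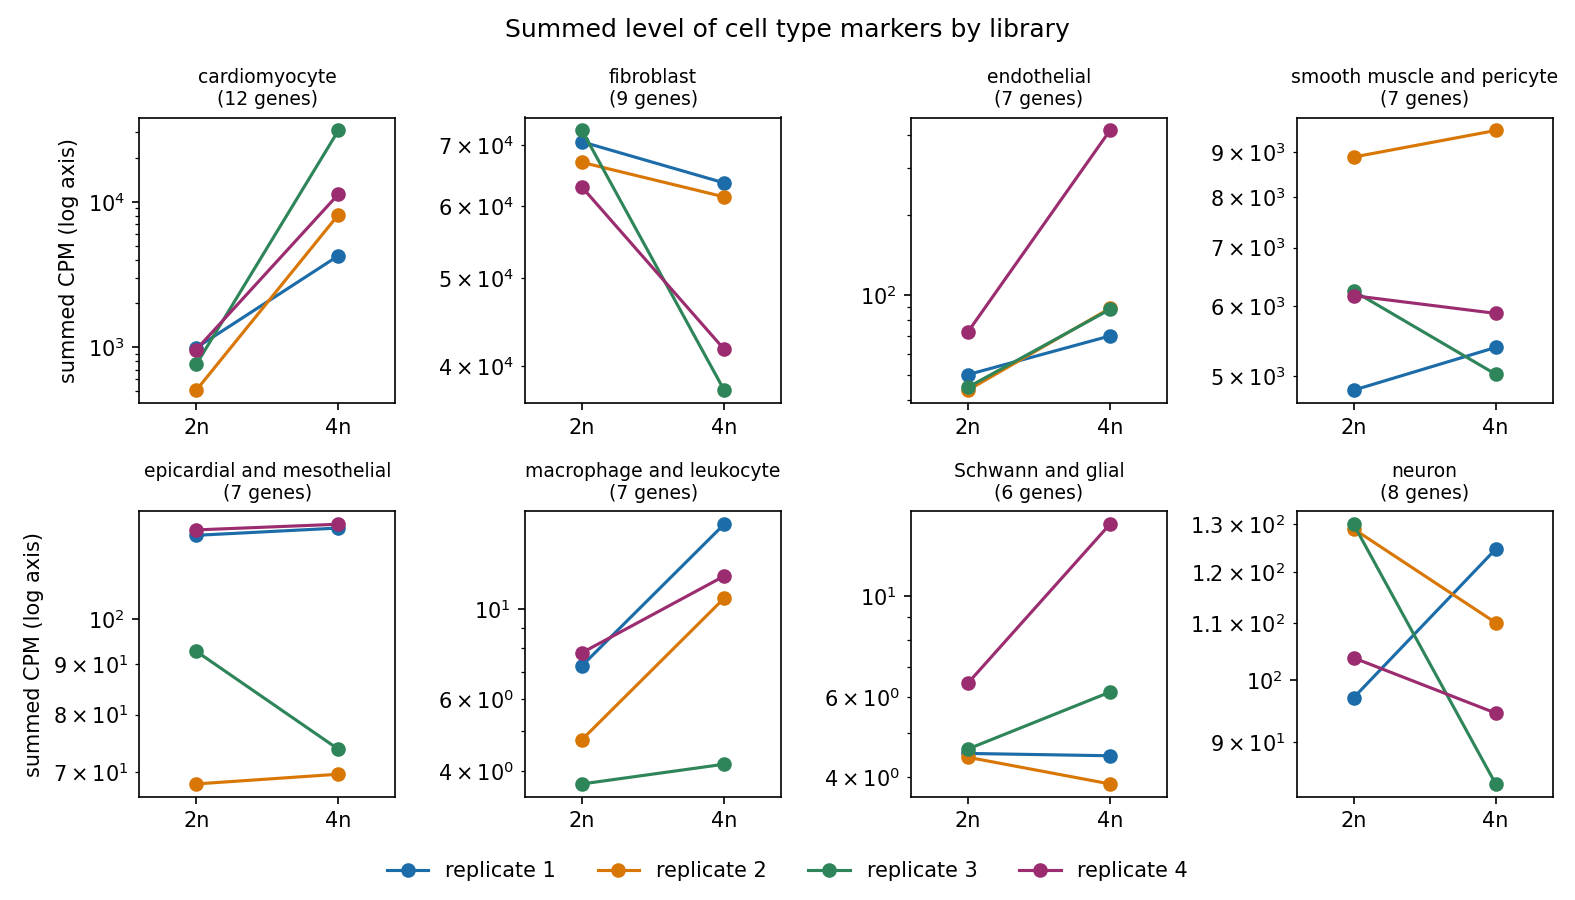
Summed CPM (log axis, a separate scale in each panel) of the markers of 8 cell types in the 2n and 4n libraries, with lines joining libraries of the same replicate number. Cardiomyocyte markers were higher in 4n in every pair, from 4253 CPM in replicate 1 to 30924 in replicate 3, and fibroblast markers were lower in every pair.

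Of the 8 genes, 1 was lower in 4n than in 2n and 0 were higher. The gene that fell was Egfr, which encodes the EGF receptor, by 0.66 on the log2 scale. The other 7 did not pass the test, with Hbegf closest to it. The test was edgeR's quasi-likelihood test with libraries paired by replicate number, with Benjamini-Hochberg adjusted p-values (all 12983 genes) and a threshold of 0.05. Over all genes it called 0.608% lower and 4.27% higher, which are the shares to set beside 1 of 8 and 0 of 8. An unadjusted p under 0.05 was found for 5 of the 8 genes, against 29.9% of all genes. Without pairing, 0 of the 8 passed (edgeR), against 0.0077% of all genes called lower and 2.67% called higher. With total count scaling (no correction for composition), the median log2 fold change of all genes moved from -0.02 to -0.26. The split of calls over all genes moved from 554 higher and 79 lower to 858 higher (6.61%) and 2520 lower (19.4%), beside 0 and 2 of the 8.

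Within pairs, Hbegf, Areg and Erbb4 were higher in 4n in 4 of 4 pairs, and Egfr was lower in 4 of 4. Among all tested genes 20.2% were higher in 4 of 4 pairs and 19.7% lower in 4 of 4. None of the 8 genes had groups that did not overlap in CPM, whereas 7.68% of all genes lay wholly higher in 4n and 3.69% wholly lower.

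**Figure D2:**
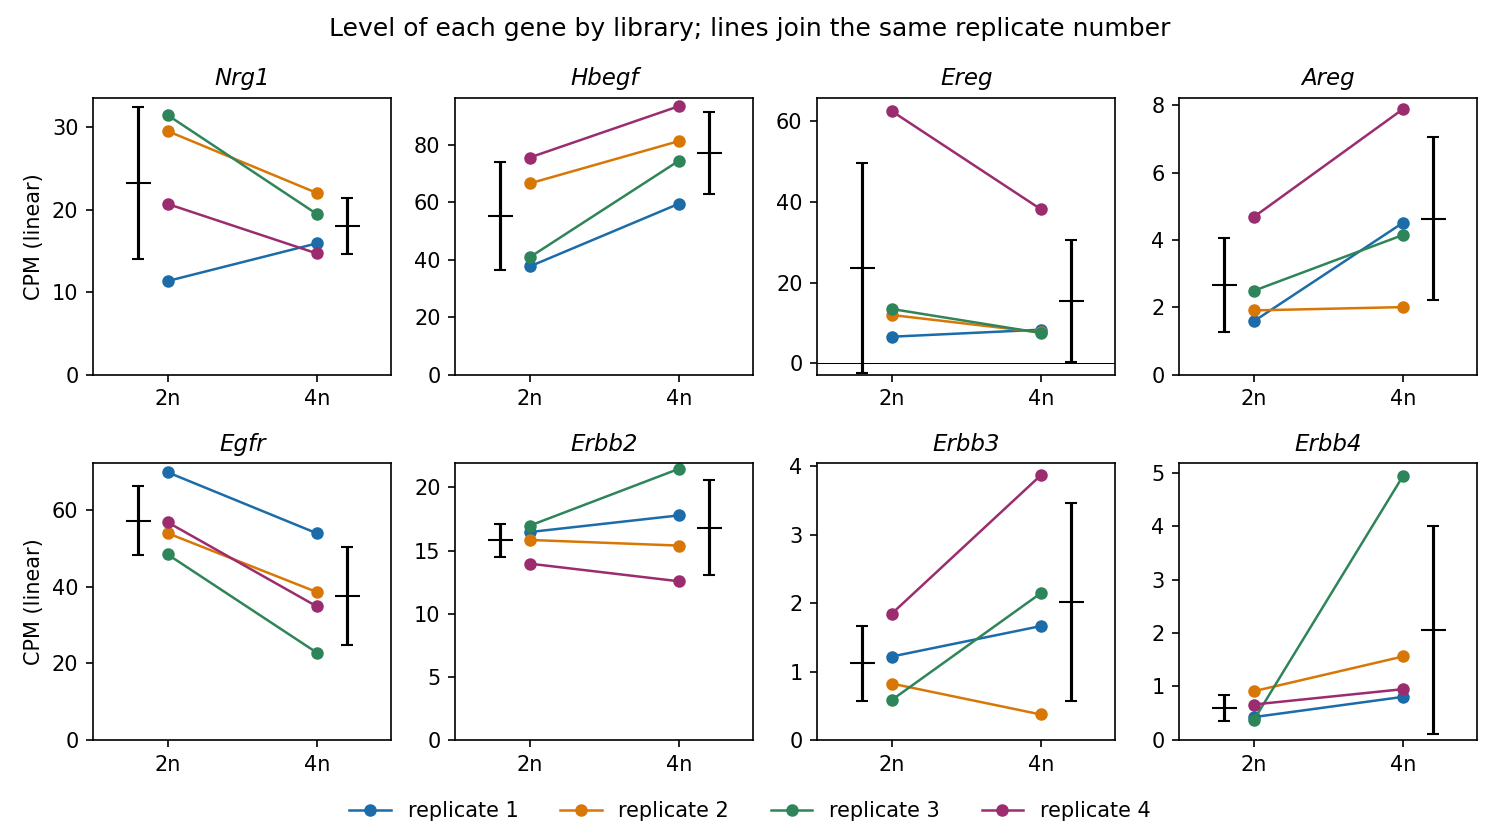
CPM (linear axis, a separate scale in each panel) of each of the 8 genes in the 2n and 4n libraries, with lines joining libraries of the same replicate number and black bars for the mean and SD (n = 4). Egfr falls along all 4 lines, Hbegf rises along all 4, Ereg is set apart by replicate 4 in both groups, and the 4n mean of Erbb4 is raised by replicate 3.

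Egfr was the most abundant receptor transcript. In 2n, replicates 1 to 4 had 70.0, 54.1, 48.5 and 56.9 CPM, and in 4n they had 54.0, 38.7, 22.8 and 34.9. Replicates 2, 3 and 4 of 4n lay below every 2n library, while 4n replicate 1 lay inside the 2n range, so the groups overlapped. Mean levels were 57.4 ± 9.11 CPM (2n) and 37.6 ± 12.9 CPM (4n), with SD over n = 4 per group. The paired log2 fold change was -0.66 (SE 0.13; 95% interval -0.96 to -0.35, edgeR adjusted p = 0.0407), a level in 4n 0.634 times that in 2n. By pair the log2 differences were -0.37, -0.48, -1.08 and -0.70 for replicates 1 to 4. The call depended on the pairing. Without pairing the fold change was -0.61 ± 0.24 (SE, edgeR adjusted p = 0.240). Without the pair of replicate 2 it was -0.72 (edgeR adjusted p = 0.110) and without that of replicate 4 it was -0.64 (edgeR adjusted p = 0.233), but in both of these smaller fits 0 of all genes passed in either direction.

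Fibroblast markers moved in the same direction as Egfr. All 9 had negative log2 fold changes, with a median of -0.58 against -0.02 over all genes tested, and 2 of 9 fell in the paired test. These were Pdgfra, a receptor of platelet-derived growth factor (-0.65 ± 0.12 SE, edgeR adjusted p = 0.0346), and Lum, the matrix proteoglycan lumican (-0.59 ± 0.11 SE, edgeR adjusted p = 0.0387). Like Egfr, neither passed without pairing (edgeR adjusted p = 0.388 and 0.408). Without the pair of replicate 2 their fold changes were -0.74 and -0.66, and without that of replicate 4 they were -0.60 and -0.64. By pair the summed fibroblast level differed by -0.15, -0.13, -0.95 and -0.59 on the log2 scale, and its part in the fall of Egfr was not tested. In both Egfr and the marker sum, replicates 3 and 4 had the larger falls. In replicates 1 and 2 Egfr differed by -0.37 and -0.48, while the sum differed by only -0.15 and -0.13. Most of the 2n mean sum of 68286.7 CPM came from Col1a1 (28183.3 CPM), Col3a1 (18732.5 CPM) and Fn1 (15583.3 CPM). None of these genes passed the paired test.

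Erbb2, the shared partner receptor, showed no detectable difference. Its values were 16.5, 15.8, 17.0 and 14.0 CPM in 2n and 17.8, 15.4, 21.5 and 12.6 in 4n for replicates 1 to 4. The 4n libraries lay on both sides of the 2n range, and 2 of 4 pairs were higher in 4n. The log2 fold change was 0.07 (SE 0.13, edgeR adjusted p = 0.749), and its 95% interval ran from -0.23 to 0.36. The sign of this small difference turned with total count scaling (-0.18), on FPKM values and without the pair of replicate 3 (-0.02).

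Erbb4, the neuregulin receptor of cardiomyocytes, was scarce in every library but one. In 2n it had 7, 21, 7 and 14 counts, or 0.427, 0.911, 0.371 and 0.662 CPM, for replicates 1 to 4. In 4n it had 15, 21, 69 and 13 counts, or 0.806, 1.56, 4.94 and 0.950 CPM. The 4n library of replicate 3 stood highest, and 4n replicate 1 lay inside the 2n range. Mean levels were 0.593 ± 0.247 CPM (2n) and 2.06 ± 1.94 CPM (4n), with SD over n = 4 per group. The log2 fold change was 1.50 (SE 0.57, edgeR adjusted p = 0.134; 95% interval 0.17 to 2.83). This was the largest fold change of the 8 genes and did not pass. Without the pair of replicate 3 it was 0.73 (edgeR adjusted p = 0.355), and the log2 differences of the other 3 pairs lay between 0.45 and 0.77.

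All 12 cardiomyocyte markers had positive log2 fold changes, and 11 of 12 rose in the paired test, with a median log2 fold change of 4.04. Their summed level differed by 2.10, 4.01, 5.34 and 3.55 on the log2 scale for the pairs of replicates 1 to 4, beside 0.77, 0.71, 3.38 and 0.45 for Erbb4. Both were highest in the 4n library of replicate 3. In the other 3 pairs the difference in Erbb4 was below 1 while that of the markers was above 2, and the part of the muscle cells in the Erbb4 level was not tested.

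Erbb3, which lacks strong kinase activity, was also scarce, with 5 to 53 counts. The 2n values were 1.22, 0.824, 0.583 and 1.85 CPM and the 4n values 1.67, 0.372, 2.15 and 3.87 CPM for replicates 1 to 4. It was higher in 4n in 3 of 4 pairs and lower in that of replicate 2, and the groups overlapped. The log2 fold change was 0.70 (SE 0.45, edgeR adjusted p = 0.324). Because Erbb3 is a gene of Schwann cells, which accompany nerves, the markers of these cells were set beside it. Of the 6 present, 2 could be tested and neither passed, with S100b at an edgeR adjusted p of 0.306. The summed level of the 6 was 4.43 to 6.44 CPM in 2n and 3.87 to 14.4 in 4n, with 0 to 3 of the 6 at 0 in a library. The highest Schwann sum and the highest Erbb3 level were both in 4n replicate 4, and the lowest of both in 4n replicate 2. The part of these cells in the Erbb3 level was not tested.

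**Figure D3:**
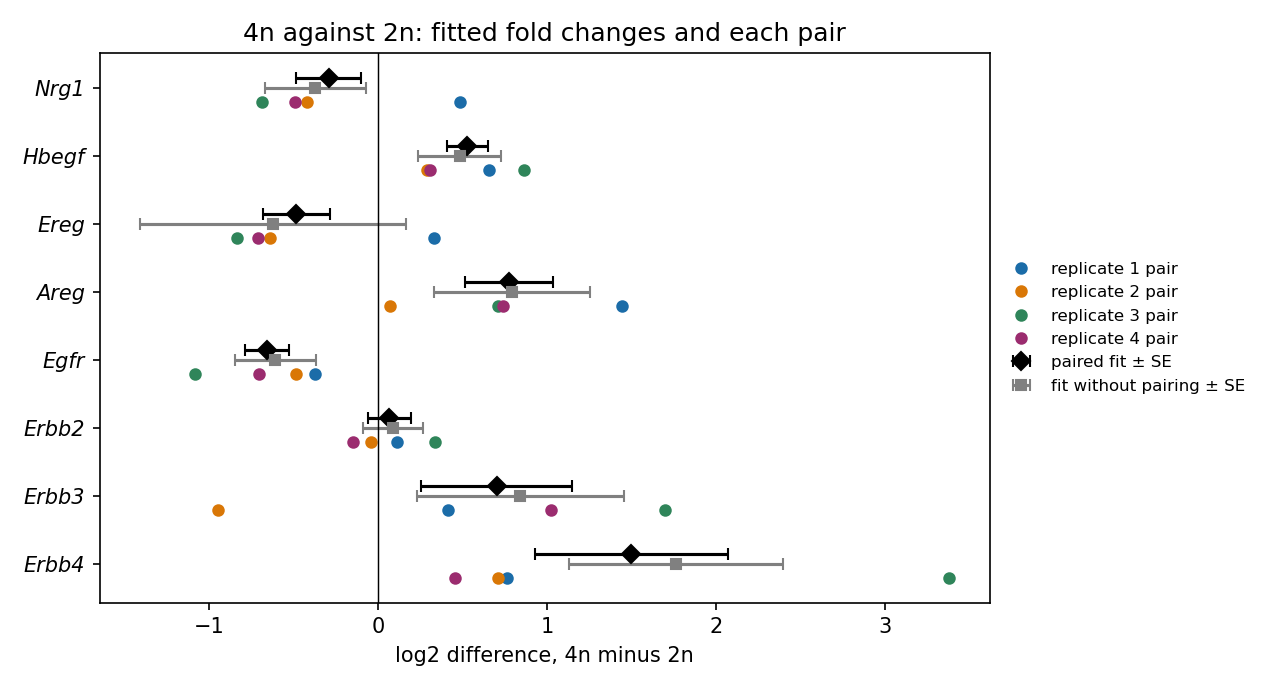
The log2 difference of 4n minus 2n for each of the 8 genes: black diamonds and grey squares give the fitted value ± SE with and without pairing, and coloured points the difference in each pair. The paired SE of Egfr and Hbegf is small beside their distance from 0, while the Erbb4 pairs spread from 0.45 to 3.38.

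Among the ligands, Hbegf, which encodes a membrane-bound growth factor shed by proteases, was the most abundant and came closest to passing as higher in 4n. Its values were 37.7, 66.6, 40.9 and 75.6 CPM in 2n and 59.5, 81.3, 74.5 and 93.5 in 4n for replicates 1 to 4. Replicates 2 and 4 were the higher 2n libraries and also the highest 4n libraries, and the groups overlapped. Mean levels were 55.2 ± 18.8 CPM (2n) and 77.2 ± 14.2 CPM (4n), with SD over n = 4 per group. The log2 fold change was 0.53 (SE 0.12, edgeR adjusted p = 0.0512; 95% interval 0.25 to 0.81), a fold of 1.44. It passed with limma-voom and with DESeq2 (adjusted p = 0.0414 and 0.00673, both paired) and was far from passing without pairing (edgeR adjusted p = 0.347). With total count scaling the difference was smaller, at 0.28. Under that scaling it did not pass (edgeR adjusted p = 0.172).

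Most endothelial markers, of cells that line vessels, had positive log2 fold changes as well. Of 7 tested, 4 rose in the paired test (Cdh5, Kdr, Tie1 and Emcn), and 0 without pairing. Egfl7 and Esam were positive without passing, and Tek was negative, at -0.22 (edgeR adjusted p = 0.410). In 2n Tek had the highest mean of the 7, at 22.9 CPM. The summed level of the 7 was 43.7 to 72.4 CPM in 2n and 69.9 to 416 in 4n, with none at 0. By pair it differed by 0.48, 1.02, 0.97 and 2.52 on the log2 scale, beside 0.66, 0.29, 0.86 and 0.31 for Hbegf, and its part in the Hbegf level was not tested. The pair of replicate 4, with the largest endothelial difference, had one of the smaller Hbegf differences. Nrg1, whose product comes from endothelial cells in the heart, differed by 0.48, -0.42, -0.69 and -0.49 in the same pairs. The part of endothelial cells in the Nrg1 level was not tested.

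Areg, which encodes amphiregulin, was higher in 4n in 4 of 4 pairs and did not pass. Replicates 1 to 4 had 1.59, 1.91, 2.49 and 4.68 CPM in 2n and 4.51, 2.01, 4.15 and 7.89 in 4n. The pair of replicate 2 hardly differed, and replicate 4 was highest in both groups. The log2 fold change was 0.77 (SE 0.26, edgeR adjusted p = 0.103; 95% interval 0.17 to 1.38).

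Ereg, which encodes epiregulin, differed far more between replicate 4 and the other cultures than between 4n and 2n. Its values were 6.58, 12.0, 13.5 and 62.6 CPM in 2n and 8.33, 7.66, 7.51 and 38.2 in 4n for replicates 1 to 4. Replicate 4 was the highest library in both groups, while the other 6 libraries lay between 6.58 and 13.5 CPM. The log2 fold change of 4n against 2n was -0.48 (SE 0.20, edgeR adjusted p = 0.153), with 3 of 4 pairs lower in 4n and that of replicate 1 higher. Without the pair of replicate 1 it was -0.75 and passed (edgeR adjusted p = 0.0140), where 3.07% of all genes were called lower. It also passed with total count scaling, at -0.73 (edgeR adjusted p = 0.0349), where 19.4% of all genes were called lower. These were the 2 of 14 alternative settings in which Ereg passed. Without the pair of replicate 2, 3 or 4 it was -0.43, -0.38 or -0.39 (edgeR adjusted p = 0.327, 0.331 and 0.481). Without pairing it was -0.62 (SE 0.79, edgeR adjusted p = 0.724).

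Nrg1, which encodes neuregulin-1, had a like pattern of signs. It stood at 11.3, 29.5, 31.4 and 20.7 CPM in 2n and 15.9, 22.0, 19.5 and 14.7 in 4n for replicates 1 to 4. The 4n libraries all lay inside the 2n range, and only the pair of replicate 1 was higher in 4n, by 0.48 on the log2 scale against differences of -0.42, -0.69 and -0.49 in replicates 2 to 4. Over all pairs the log2 fold change was -0.29 (SE 0.19, edgeR adjusted p = 0.342; 95% interval -0.74 to 0.16). Without the pair of replicate 1 it was -0.56 and passed (edgeR adjusted p = 0.0405). In that fit 3 of the 8 genes, Egfr, Ereg and Nrg1, were lower, against 3.07% of all genes. It leaves out the only pair with a higher Nrg1 in 4n, and Nrg1 passed in just this 1 of 14 alternative settings. Without the pair of replicate 2, 3 or 4 the Nrg1 fold change was -0.24, -0.15 or -0.22 (edgeR adjusted p = 0.572, 0.686 and 0.654). Without pairing the value was -0.37 (edgeR adjusted p = 0.561).

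Differences between the replicate numbers, which stand for separate experiments, were tested in the same paired model, a test added after the values had been seen. Of the 8 genes, 1 differed between replicate numbers: Ereg (edgeR adjusted p = 0.00485), against 8.21% of all genes. The level of Ereg, as the mean log2 CPM of a pair, spanned 2.70 between replicate numbers, compared with a fitted 4n difference of -0.48. Hbegf, Egfr and Areg followed without passing (edgeR adjusted p = 0.0562, 0.0807 and 0.0844). Without replicate 4 no gene of the 8 passed this test, against 0.494% of all genes, and Ereg had an edgeR adjusted p of 0.613. Without replicate 3, 4 of the 8 passed: Ereg, Hbegf, Areg and Egfr (edgeR adjusted p = 0.000904, 0.0106, 0.0341 and 0.0495), against 19.4% of all genes. Areg and Ereg are neighbours on chromosome 14, 45175 bases apart. Their log2 CPM values correlated with Pearson's r = 0.63 over the 8 libraries, which share 4 cultures, and replicate 4 was highest for both genes in both groups.

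Per length, Hbegf was the leading ligand and Egfr the leading receptor in both groups. In FPKM, a level corrected for gene length and library size, the 2n means were 26.0 for Hbegf, 15.0 for Egfr, 12.2 for Ereg, 4.76 for Nrg1, 2.81 for Erbb2, 2.53 for Areg, 0.205 for Erbb3 and 0.170 for Erbb4. Neighbours in this order overlapped in their ranges over libraries, except Areg and Erbb3. In 4n the order was Hbegf at 30.6, Egfr at 8.64, Ereg at 6.70, Areg at 3.78, Nrg1 at 3.12, Erbb2 at 2.54, Erbb4 at 0.473 and Erbb3 at 0.312 FPKM. There only Hbegf against Egfr, and Erbb2 against Erbb4, were separated without overlap. The FPKM scale counts the mitochondrial genes, so it is lowered for nuclear genes in 4n replicates 2, 3 and 4, and no level is compared between the groups on it.

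The share of Egfr among the receptor transcripts was lower in 4n in every pair, with no test made. Of the summed FPKM of the 4 receptors, Egfr took 84.8%, 81.4%, 79.7% and 83.2% in 2n replicates 1 to 4, and 79.2%, 75.6%, 51.5% and 73.9% in 4n. The groups did not overlap, though the lowest 2n share (79.7%) and the highest 4n share (79.2%) lay close together and 4n replicate 3 lay far below the rest. Erbb2 took 15.7% ± 2.50 in 2n and 22.3% ± 7.19 in 4n, and Erbb4 0.949% ± 0.426 and 4.76% ± 5.03 (SD, n = 4 per group), each higher in 4n within all 4 pairs. The largest Erbb4 share was 12.2% in 4n replicate 3. Erbb3 took 0.510% to 5.74% in 4n and 0.671% to 1.89% in 2n. Since shares sum to a whole, a change in the level of any of the 4 receptors moves the shares of the others. The shares rest on the same counts as the fold changes above.

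Among the ligands, Hbegf took 60.4% ± 11.7 of the summed FPKM in 2n and 70.7% ± 8.40 in 4n (SD, n = 4 per group), higher in 3 of 4 pairs. Ereg took 42.2% in 2n replicate 4 and 26.6% in 4n replicate 4, against 8.14% to 19.9% in the other 6 libraries. The Nrg1 share was 5.53% to 18.4% in 2n and 4.05% to 9.27% in 4n, lower in 4n in 4 of 4 pairs.

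**Figure D4:**
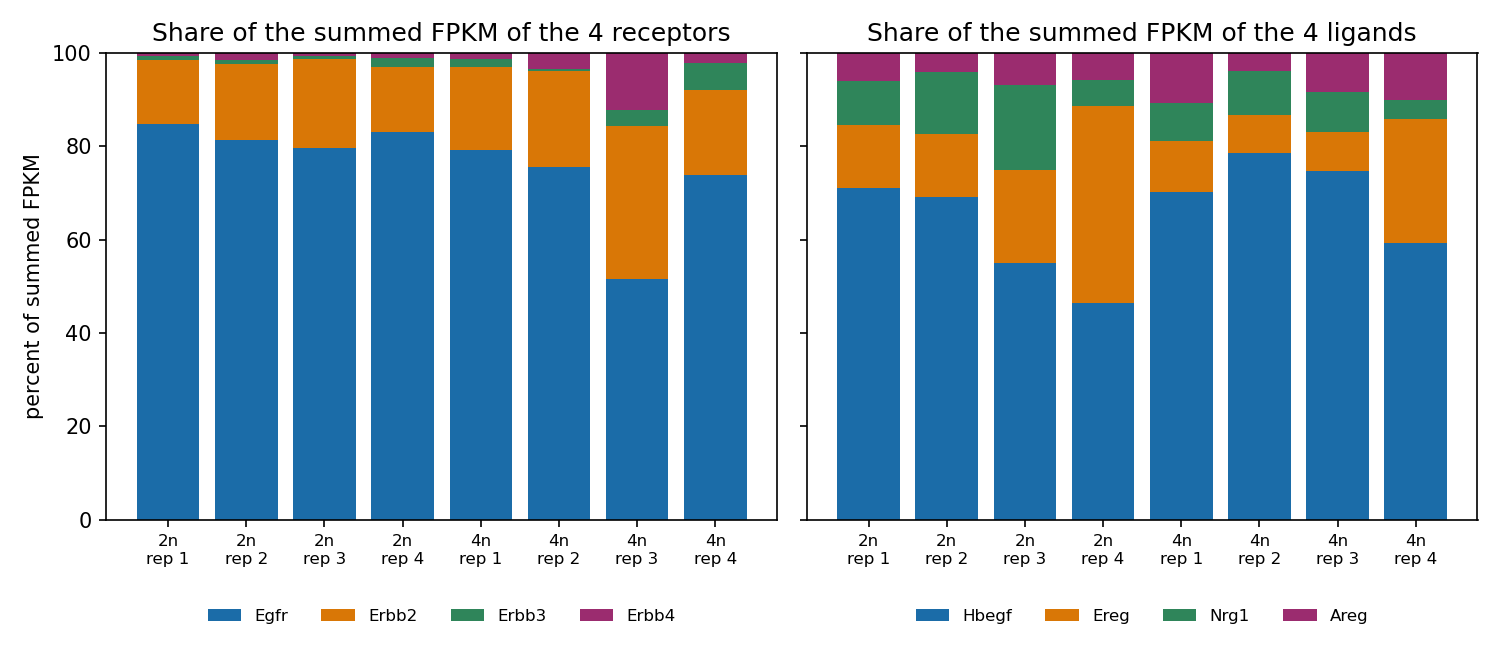
Share (percent) of the summed FPKM of the 4 receptors (left) and the 4 ligands (right) taken by each gene, with 1 bar per library. Egfr takes 79.7% or more of the receptor sum in the 2n bars and 79.2% or less in the 4n bars, and Ereg is widest in replicate 4 of both groups.

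Other genes of the pathway were read by role from lists of 71 genes in all, of which 66 could be tested. None rose and 2 fell (edgeR, paired), or 3.03% against 0.608% of all genes called lower. The median log2 fold change over these 66 was -0.10, against -0.02 over all genes.

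Most other EGF-family ligands were scarce, Tgfa excepted. Of 7, only Egf, the founding ligand of the family, and Tgfa, an EGFR ligand, could be tested, and neither passed. Tgfa stood at 16.9 CPM in 2n and 13.8 in 4n as group means. The log2 fold changes of Egf and Tgfa were -0.90 and -0.27 (edgeR adjusted p = 0.188 and 0.212). Btc, which encodes betacellulin, had 1 to 18 counts per library, Nrg2 at most 2 and Nrg4 at most 1. Epgn and Nrg3 were listed at 0 in all 8 libraries, which allows up to 3 counts in a library, or 0.130 to 0.223 CPM, for counting error only. A 0 in this table can also come from the counting, since Col1a2 and Myh9, genes of abundant collagen and myosin, were listed at 0 in all 8 libraries too.

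Of 8 genes that process the ligands, 0 passed in either direction and the median was -0.04. In edgeR 2 of the 8 had an unadjusted p under 0.05, against 29.9% of all genes. Closest were the membrane proteases Adam12, at -0.74 (edgeR adjusted p = 0.0627), and Adam17, the main shedding protease of EGFR ligands, at -0.27 (edgeR adjusted p = 0.0871). Both were lower in 4n in 4 of 4 pairs. With total count scaling 3 of the 8 passed as lower, against 19.4% of all genes.

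Among 29 genes of receptor adaptors and signal relay, 1 fell, against 0.608% of all genes, and the median was -0.06. The list runs from the adaptors Grb2 and Shc1 to genes of the RAS, ERK and PI3-kinase pathways. In edgeR 7 of the 29 had an unadjusted p under 0.05, against 29.9% of all genes. Pik3cb, a catalytic subunit of PI3-kinase named after its values were seen as the largest positive difference, stood at 1.00 without passing (edgeR adjusted p = 0.0645).

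Among 18 inhibitors of the receptors and the pathway, 1 fell, against 0.608% of all genes, and the median was -0.28. Fold changes were negative for 14 of the 18, against 6792 of the 12983 genes tested. An unadjusted p under 0.05 (edgeR) was found for 11 of the 18, against 29.9% of all genes. The gene that fell was Socs5, whose product limits EGFR, at 272 ± 29.5 CPM in 2n and 202 ± 40.6 CPM in 4n (SD, n = 4 per group). Its log2 fold change was -0.45 with an SE of 0.093 (edgeR adjusted p = 0.0445, or 0.221 without pairing). Without the pair of replicate 3 the fold change was -0.39, no longer passing (edgeR adjusted p = 0.0554), and without that of replicate 2 or 4, where 0 of all genes passed, it was -0.49 or -0.42. Lrig1, an inhibitor that binds ErbB receptors, was named after its values were seen as the largest positive difference, at 0.60 (edgeR adjusted p = 0.0680). With total count scaling, under which all genes have a median of -0.26, 11 of these 18 passed as lower, against 19.4% of all genes.

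Of 9 transcripts that respond to ERK signalling, 0 passed and the median was -0.07. In edgeR 4 of the 9 had an unadjusted p under 0.05, against 29.9% of all genes. Fosl1 and Myc, transcription factors, came closest, at -0.46 and -0.42 (edgeR adjusted p = 0.0779 and 0.0843), both lower in 4n in 4 of 4 pairs. Phlda1, named after its values were seen as the largest difference of the list, stood at 0.80, higher in 4 of 4 pairs (edgeR adjusted p = 0.0982). Egr1 and Fos, immediate early genes, were at -0.02 and 0.08.

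**Figure D5:**
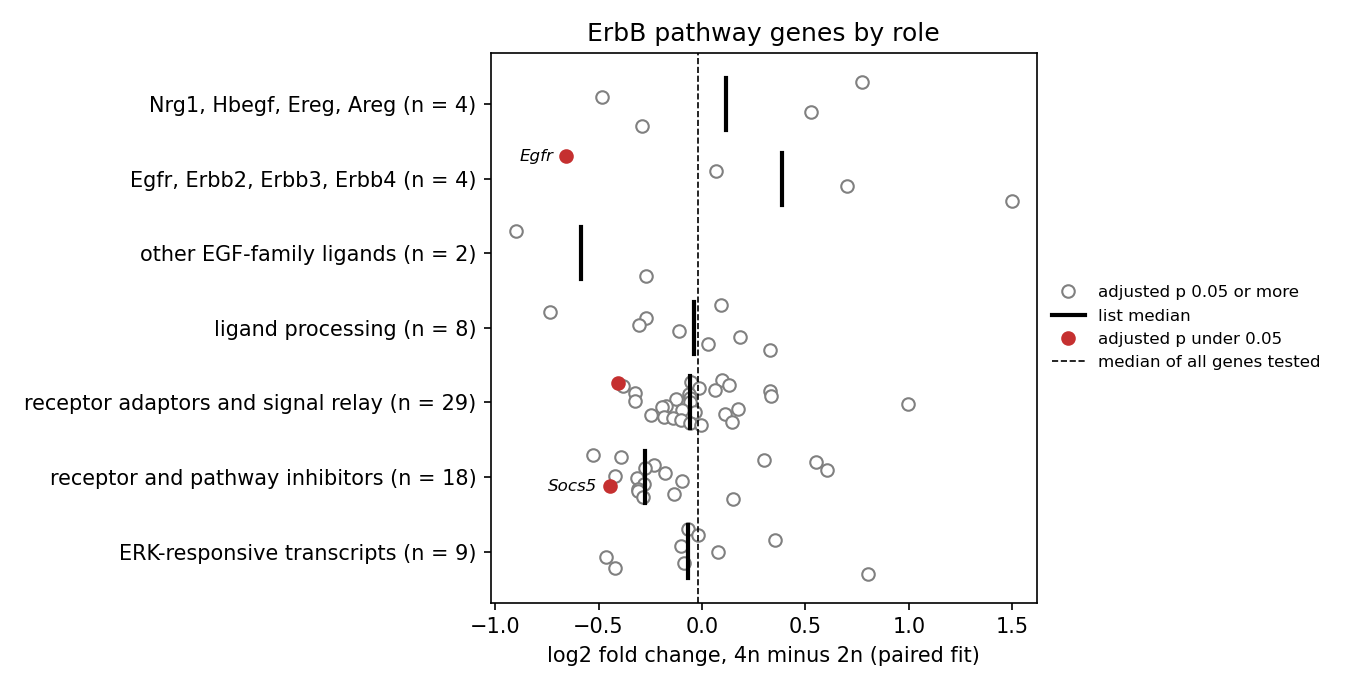
Log2 fold change of 4n minus 2n (paired fit) for each tested gene, by role; red points passed the test, black bars are list medians and the dashed line is the median of all genes (-0.02). The 3 red points, with Egfr and Socs5 named, all lie on the negative side, and the inhibitors have the median of the larger lists farthest from 0, at -0.28.

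The genes whose log2 CPM was most like each of the 8 over the 8 libraries were taken from 9823 or 9824 candidates, so that high correlations arise from the choice alone. For Egfr they were Sdccag8, Olfml3 and Adamts14 (Pearson's r = 0.99, 0.99 and 0.98), and for Erbb4 Prepl, Foxred1 and Oxnad1 (r = 0.99, 0.98 and 0.98). For Ereg they were Zfand2a, the prostaglandin synthase gene Ptgs2 and Dcdc2 (r = 0.98, 0.97 and 0.96). For Hbegf they were Pdlim1, the connexin gene Gja5 and Parm1 (r = 0.97, 0.97 and 0.94), and for Nrg1 Fasn, Ube3c and St8sia2 (r = 0.98, 0.98 and 0.98). Areg was most like Fam133b, Snapc2 and Rab3b, Erbb2 most like Vps26b, Arhgap21 and Il17rc, and Erbb3 most like Pcnx, Gtse1 and Ckap2, with r from 0.93 to 0.96. Among the 8 themselves, the strongest negative correlation was that of Egfr with Erbb4 (r = -0.87) and the strongest positive that of Areg with Erbb3 (r = 0.82). All of these points share depth, culture and scaling.

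In the build Rnor_6.0 the table places Egfr on chromosome 14 from 99919485 to 100098796, Areg from 18521930 to 18531179 and Ereg from 18576355 to 18591394 on the same chromosome. Hbegf lies on chromosome 18 from 29329764 to 29340403, Nrg1 on chromosome 16 from 63837216 to 64057434 and Erbb2 on chromosome 10 from 86367596 to 86391728. Erbb3 lies on chromosome 7 from 2989340 to 3010350 and Erbb4 on chromosome 9 from 75021790 to 75528644. Counts are per gene, so the isoforms of Nrg1 and Erbb4, which differ in function, were not told apart.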

How the data were processed

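Messenger RNA libraries of 4 sorted 2n and 4 sorted 4n samples were compared. HISAT2 2.0.4 and the rat build Rnor_6.0 are named, per the submitters' processing notes; for the counting tool, the annotation release and the strand setting, nothing is given in the sources used here. Each gene has a deposited count, a whole number that is not normalized, and a deposited FPKM value, which equals the count divided by a constant per gene and the library's total. Without a stated strand setting, overlapping genes on opposite strands cannot be told apart. The labels give the organism as Rattus rattus and the strain as SD.

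The count model was edgeR 4.0.16 under R 4.3.3 (filterByExpr, TMM scaling, robust quasi-likelihood fit, two-sided), with group and, as a block, replicate number. The pairing was checked first: deviations from the group means correlated at 0.43, 0.58, 0.27 and 0.65 within replicates 1 to 4, and no library was closer to another number. The evidence for pairing is thus this correlation and descriptions that start with a shared code, and no protocol states it. Replicates differed by more than sampling noise, so none was counted as a repeat. The SE is the fold change over the root of F. CPM uses TMM-scaled library sizes, and log2 CPM a prior count of 2. The labels describe independent experiments. Depth was 14783521 to 21033772 counts, so that 1 CPM before scaling stands for 14.8 counts or more, and Erbb3 and Erbb4 rest on few counts.

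The fit was tested on simulated data and made more false calls there than its threshold implies, so an adjusted p close to the threshold, such as that of Egfr, is to be read with caution. Alternatives were the fit without the block, other scalings and filters, DESeq2 1.42.0, limma 3.58.1 (voom, and log2 FPKM values with a pseudocount of 0.1 or 1 and a mean of at least 0.1 FPKM), and leaving out each pair. The genes and lists were chosen with earlier results of these data known. All 8 genes are named. Of each other pathway list, the genes that passed are named (1 is not reported here), or else the 2 with the smallest unadjusted p. The most similar genes are the 3 with the highest correlation among tested genes with a symbol and at least 5 CPM in a group.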

Additional observations from a re-analysis of the deposited data

Results flagged for a closer look

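In 16 groups of 4 values (8 genes in 2n and in 4n), the highest or lowest library was compared with the rest by the gap to its nearest neighbour as a part of the whole range, where chance marks about 1 in 20 groups. Ereg, the epiregulin gene, was marked in both groups. In 2n the library of replicate 4 had 62.6 CPM, with 0.877 of the range lying between it and the next library. In 4n the library of replicate 4 had 38.2 CPM, with 0.973 of the range. These libraries come from the same replicate number. No other gene of the 8 was marked in this comparison.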

How the results depend on the processing

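The main fit holds the replicate number as a block. With no replicate block, 347 genes were called higher and 1 lower among all genes, against 554 and 79 paired, and 0 of the 8 genes was called lower, against 1 (edgeR). Leaving out a pair moved the counts over all genes from 0 to 1254 higher and from 0 to 399 lower, and the number of the 8 called lower from 0 to 3. Both 0 counts arose without replicate 2 or 4. Other tools and scalings gave, for higher and lower over all genes, 858 and 2520 with total count scaling, 1283 and 621 with DESeq2, 895 and 157 with limma-voom, 853 and 1685 on log2(FPKM + 0.1), and 1119 lower on log2(FPKM + 1). The 8 genes had 1 called higher with DESeq2 and 1 with limma-voom (Hbegf), and 2 called lower with total count scaling (Egfr and Ereg). Erbb2 changed sign with total count scaling (-0.18), on log2(FPKM + 0.1) and log2(FPKM + 1) (-0.17 and -0.12) and without replicate 3, leaving out a pair giving -0.024 to 0.14. The test between replicate numbers, whose alternatives were added after seeing the data, called 1 of the 8, against 8.21% of all genes. It called 4 without replicate 3 and 0 without replicate 4, against 19.4% and 0.494% of all genes. With total count scaling and with no filter on low counts it called more of the 8 than the main fit. The share of all genes was not worked out for those settings. Egfr was called in 11 of 14 alternatives, from -0.90 to -0.52, and not with the block left out or without replicate 2 or 4. Egfr stood at -0.90, -0.90 and -0.82 with total count scaling, log2(FPKM + 0.1) and log2(FPKM + 1). In these settings the median of all genes shifted by -0.24, -0.23 and -0.15 from the main fit. The cause of the changes in calls between settings was not tested. Erbb4 did not pass the stricter filter and has no value there.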
